A study of Danio rerio with 12 samples.

Results

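The stathmin family of the zebrafish larval head was examined as 7 genes, *stmn1a*, *stmn1b*, *stmn2a*, *stmn2b*, *stmn3*, *stmn4* and *stmn4l*, taken by symbol from a table of 32266 genes. Each symbol had a single identifier, and all 7 genes were abundant enough to be among the 22753 genes tested. The tested animals were homozygous for the *rb1Δ7* frameshift allele (labelled rb1-/-), and the controls were +/+ larvae, both from incrosses of *rb1Δ7/+* adults in the WIK background. Heads were dissected at 5 days post fertilization (dpf) and 5 heads were pooled for each library, giving 3 mutant and 3 wild-type RNA-Seq libraries that were each sequenced in 2 lanes. The mutation is carried by every cell of the animal, and a pool of whole heads mixes brain and retina with muscle, lens, skin and blood.

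Stathmins are small phosphoproteins that bind free tubulin and make microtubules more likely to shorten, and phosphorylation by cell cycle and signaling kinases releases the tubulin. In mammals stathmin 1 is a cytosolic protein of dividing cells and young neurons, while stathmins 2, 3 and 4 carry a lipid-anchored extension, sit on Golgi and vesicle membranes and are found in neurons, where they act in growing axons. Zebrafish have pairs of related genes for stathmin 1 (*stmn1a*, *stmn1b*), stathmin 2 (*stmn2a*, *stmn2b*) and stathmin 4 (*stmn4*, *stmn4l*). Here *stmn1a* was set as the progenitor member against the 6 others, treated here as the neuronal stathmins.

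Counts of both lanes were added, and the totals on genes lay between 45158621 and 47700950 counts in the mutant and between 41065256 and 46621056 counts in the wild type. The targeted gene, *rb1*, was at 11.6, 9.84 and 9.52 CPM (counts scaled to library size with TMM factors) in mutant pools 1, 2 and 3, against 26.8, 20.8 and 18.4 CPM in wild-type pools 1, 2 and 3, so the libraries matched their labels. The genotype comparison used edgeR's quasi-likelihood test with Benjamini-Hochberg adjustment over all genes tested. A gene was counted if its adjusted p did not exceed 0.05, and separately if it met the study's stricter threshold, an adjusted p up to 0.01 with a 1.5-fold change or more. Of all genes tested, 3.82% were higher and 2.17% were lower in the mutant at 0.05, and 0.897% were higher and 0.286% were lower at the stricter threshold. Pools with the same number deviated together from their genotype means in both genotypes, so a fit that takes pool number for a replicate block is given where it changes a call. In that fit 5.10% of genes were higher and 4.03% lower at 0.05, and 0.747% were higher and 0.281% lower at the stricter threshold. Without adjustment, 12.8% of all genes were higher and 10.5% lower at p under 0.05 in edgeR. DESeq2 at 0.05 had 6.25% higher and 5.16% lower.

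At 0.05 the mutant heads had 1 stathmin with a lower expression, *stmn3*, and 0 with a higher expression, and *stmn1a* lay just outside the threshold with the largest difference of the family. With the replicate block *stmn1a* passed as well, so that 1 of 7 members was higher and 1 lower. The other 5 members had adjusted p-values between 0.425 and 0.996 from edgeR. At the stricter threshold edgeR called 0 of 7 members, DESeq2 called 1 (*stmn1a*), and 2 members, 1 higher and 1 lower, had an unadjusted p under 0.05 in edgeR (12.8% and 10.5% of all genes). DESeq2 called 2.81% of its genes higher and 1.98% lower at this threshold. The median log2 fold change of the 7 members was 0.02, against -0.01 over all genes tested.

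The progenitor member *stmn1a* (ENSDARG00000004169) was expressed at 102, 80.9 and 103 CPM in mutant pools 1, 2 and 3, against 69.9, 49.2 and 42.0 CPM in wild-type pools 1, 2 and 3. Every mutant pool was above every wild-type pool, and the gap was narrow only between mutant pool 2 and wild-type pool 1, the highest of the controls. The mean was 95.1 ± 12.3 CPM in the mutant and 53.7 ± 14.5 CPM in the wild type (SD, n = 3 each). The difference was 1.77-fold, or 0.82 on the log2 scale (standard error 0.19, 95% interval 0.37 to 1.27, adjusted p = 0.0505 from edgeR). The fit with the replicate block gave 0.85 (adjusted p = 0.0308 from edgeR), and the differences within same-numbered pools were 0.54, 0.72 and 1.29. The call thus rested on the fit, while the direction was the same in all 3 pairs. The adjusted p was at or under 0.05 in 2 of the 6 edgeR fits that left out a pool, those without wild-type pool 1 (1.06, adjusted p = 0.0165) and without mutant pool 2 (0.0419). Over all genes tested, 16.1% had every mutant pool above every wild-type pool and 13.2% had every mutant pool below, and *stmn1a* and *stmn3* were the members of each kind. In whole heads, a larger number of expressing cells and more RNA per cell cannot be told apart.

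**Figure D1:**
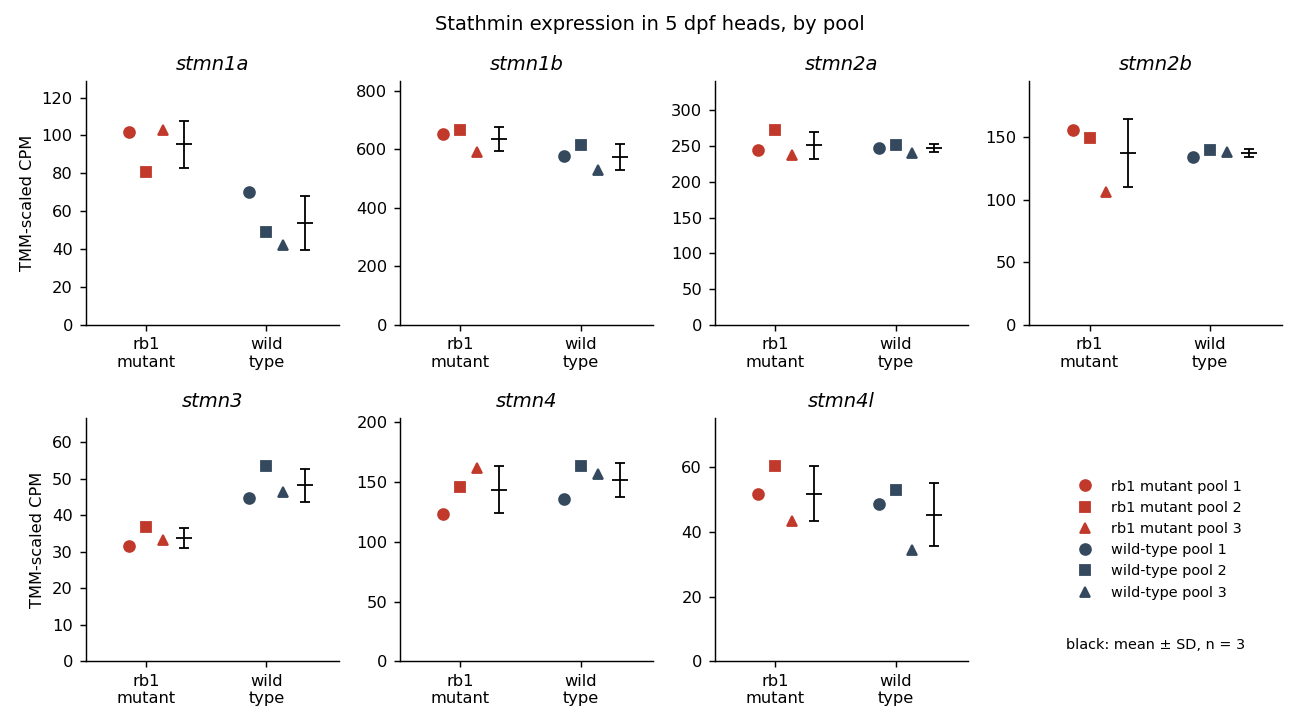
Expression of the 7 stathmins in TMM-scaled CPM (vertical axes, each starting at 0) in the rb1 mutant and wild-type pools, 1 point per pool, with the mean and SD of 3 pools in black. The *stmn1a* points of the mutant, 80.9 to 103 CPM, all lie above those of the wild type, 42.0 to 69.9 CPM, the *stmn3* points of the mutant all lie below, and the groups overlap for the other 5 genes.

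The neuronal member *stmn3* (ENSDARG00000038465), whose mammalian counterpart regulates microtubules in axons and dendrites, was at 31.5, 36.9 and 33.3 CPM in mutant pools 1, 2 and 3. In wild-type pools 1, 2 and 3 it was at 44.8, 53.4 and 46.4 CPM. The groups did not overlap, and the difference was nearly the same in each same-numbered pair, with log2 values of -0.51, -0.53 and -0.48. Its mean was 33.9 ± 2.76 CPM in the mutant and 48.2 ± 4.59 CPM in the wild type (SD, n = 3 each), and it fell by 0.51 on the log2 scale, to 0.70 of the wild-type level (standard error 0.11, 95% interval -0.75 to -0.26, adjusted p = 0.0348 from edgeR). Blocking on the pool number gave an adjusted p of 0.0191. The adjusted p stayed at or under 0.05 in 1 of the 6 fits that left out a pool, the fit without mutant pool 2 (0.034), and it was 0.167 without mutant pool 1, 0.056 without mutant pool 3, 0.0535 without wild-type pool 1, 0.156 without wild-type pool 2 and 0.0859 without wild-type pool 3.

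Of the stathmin 1 pair, *stmn1b* (ENSDARG00000033655) was the most abundant member in both genotypes. It was at 653, 667 and 590.4 CPM in the mutant pools, against 578, 615 and 529 CPM in the wild-type pools, and the groups overlapped. Its log2 fold change was 0.15 (standard error 0.10, 95% interval -0.08 to 0.38, adjusted p = 0.425 from edgeR), with 0.18, 0.12 and 0.16 within the pairs. The upper end of this interval, 0.38, lay just above the lower end of that of *stmn1a*, 0.37. 50-base reads that align equally well to both copies of a pair would have been dropped as not unique, and the sequence identity of the copies was not examined here.

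The stathmin 2 pair, whose mammalian counterpart (SCG10) is a growth cone protein, showed the closest agreement between wild-type pools. *stmn2a* (ENSDARG00000033234) was at 244, 273 and 237 CPM in the mutant pools, against 248, 252 and 241 CPM in the wild-type pools. *stmn2b* (ENSDARG00000070537) was at 156, 149.7 and 106 CPM in the mutant pools, against 134, 139.9 and 138 CPM in the wild-type pools. The mutant pools were more spread for both genes, with a coefficient of variation of 7.58% against 2.18% for *stmn2a* and of 19.9% against 2.23% for *stmn2b*, and mutant pool 3 was the lowest of the 6 libraries for each. The pan-neuronal genes *elavl3* and *elavl4*, which encode the HuC and HuD RNA-binding proteins of neurons, were also lowest in mutant pool 3, at 278 and 396 CPM, against 386 and 540.3 CPM in mutant pool 1. Other neuronal markers did not share this pattern. *snap25a* was lowest in mutant pool 1 (472 CPM, against 515 CPM in mutant pool 3). *gap43* was lowest of the mutant pools in pool 3 (93.8 CPM) but lower still in wild-type pool 3 (84.3 CPM). The log2 fold change was 0.02 for *stmn2a* (95% interval -0.19 to 0.24, adjusted p = 0.909 from edgeR) and 0.00 for *stmn2b* (95% interval -0.35 to 0.34, adjusted p = 0.996). Without mutant pool 3 the value of *stmn2b* was 0.15 (adjusted p = 0.257).

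The stathmin 4 pair, related to the mammalian RB3 protein of neurons, did not pass the test either. *stmn4* (ENSDARG00000030106) was at 123, 146 and 162 CPM in the mutant pools, against 136, 163 and 157 CPM in the wild-type pools, a log2 fold change of -0.08 (95% interval -0.38 to 0.21, adjusted p = 0.760 from edgeR). *stmn4l* (ENSDARG00000043932) was at 51.8, 60.2 and 43.3 CPM in the mutant pools, against 48.7, 52.8 and 34.4 CPM in the wild-type pools, a log2 fold change of 0.19 (95% interval -0.23 to 0.62, adjusted p = 0.582). Their profiles differed, since *stmn4l* was lowest in pool 3 of both genotypes while *stmn4* was lowest in pool 1 of both. In the GRCz12tu assembly of RefSeq, *mcm3*, a subunit of the replicative helicase, lies next to *stmn4*. *mcm3*, named after its value had been seen, averaged 85.7 CPM in the mutant and 39.2 CPM in the wild type (log2 fold change 1.13, adjusted p = 0.0728 from edgeR). Its groups did not overlap, whereas those of *stmn4* did. The other tested neighbors of the members had smaller log2 fold changes, from -0.47 (*upp1*) to 0.37 (*si:dkeyp-120h9.1*).

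Levels were compared between genes per kilobase of the exonic length that the authors deposited, which ran from 1094 bases for *stmn1a* to 3639 for *stmn3*. In the mutant the order of the mean levels was *stmn1b* (377 CPM per kilobase), *stmn2a* (117), *stmn1a* (86.9), *stmn2b* (75.2), *stmn4* (58.5), *stmn4l* (35.5) and *stmn3* (9.31). In the wild type it was *stmn1b* (340.3 CPM per kilobase), *stmn2a* (115), *stmn2b* (75.3), *stmn4* (61.9), *stmn1a* (49.1), *stmn4l* (31.1) and *stmn3* (13.2). The genes thus kept the same order except *stmn1a*, which stood in the third place in the mutant and in the fifth place in the wild type. Neighbors in the order had ranges that overlapped only for *stmn1a* with *stmn2b* and *stmn2b* with *stmn4* in the mutant, and for *stmn4* with *stmn1a* in the wild type. Of the members, 6 lay above the 90th percentile of level per kilobase among the genes tested, from 91.7 for *stmn4l* to 99.1 for *stmn1b*, and *stmn3* lay at 71.7.

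The composition of the family was then compared within each library, which does not depend on scaling between libraries. *stmn1a* made up 12%, 9.37% and 13.1% of the summed stathmin level per kilobase in mutant pools 1, 2 and 3, against 9.18%, 6.23% and 6.0% in wild-type pools 1, 2 and 3. The groups did not overlap, but mutant pool 2 and wild-type pool 1 were nearly equal. *stmn1b* held 49.7 ± 0.724% of the total in the mutant and 49.6 ± 0.876% in the wild type (SD, n = 3 each), so its share was the steadiest of the family relative to its size. *stmn3* held 1.12% to 1.28% in the mutant pools, against 1.77% to 2.04% in the wild-type pools. The share of *stmn2a* was 14.7%, 16.1% and 15.4% in the mutant pools, against 16.6%, 16.3% and 17.5% in the wild-type pools, so this share was lower in every mutant pool, with a narrow gap. Its level itself was not lower, at a mean of 117 CPM per kilobase in the mutant and 115 in the wild type. Shares add up to a fixed total, so a larger share of 1 member lowers those of others. The shares of *stmn2b* (9.85% and 11%), *stmn4* (7.73% and 9.05%) and *stmn4l* (4.66% and 4.5%) overlapped between the genotypes and are given as means of the mutant and of the wild type.

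**Figure D2:**
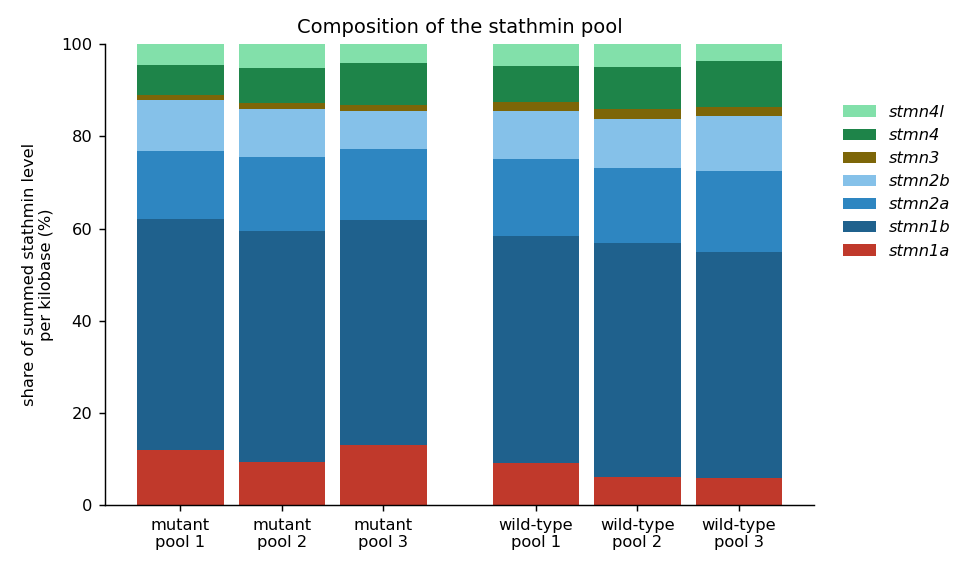
Share of each stathmin in the summed level per kilobase of the family (vertical axis, percent, from 0 to 100) in the 3 rb1 mutant and 3 wild-type pools, 1 bar per pool. The *stmn1a* segment at the base spans 9.37% to 13.1% in the mutant and 6.0% to 9.18% in the wild type, while the *stmn1b* segment stays near 50% in every bar (48.8% to 50.6%).

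The progenitor member was set against the sum of the neuronal members in each library. *stmn1a* reached 13.6%, 10.3% and 15.1% of the neuronal sum in the mutant pools, against 10.1%, 6.65% and 6.39% in the wild-type pools. The log2 ratio was -2.96 ± 0.283 in the mutant and -3.73 ± 0.367 in the wild type (SD, n = 3 each), a difference of 0.77 or 1.71-fold. This difference was larger than the SD of either group, and every mutant pool was above every wild-type pool (two-sided exact permutation test, p = 0.1, which is the minimum for 3 pools against 3; adjusted p = 0.2 over 4 such comparisons). Within same-numbered pools the ratio was higher in the mutant in 3 of 3 pairs, by 0.43, 0.64 and 1.24 (exact sign-flip permutation, p = 0.25, which is the minimum for 3 pairs). The neuronal sum itself was 680.5, 715 and 623 CPM per kilobase in the mutant pools, against 633, 676 and 602 in the wild-type pools. Its log2 difference of 0.08 was smaller than the SD of the mutant pools, 0.101 (exact permutation test, p = 0.4). Within same-numbered pools the sum was higher in the mutant in 3 of 3 pairs, by 0.11, 0.08 and 0.05 on the log2 scale (exact sign-flip permutation, p = 0.25, also the minimum). Most of the sum was *stmn1b*, with a mean of 377 of 673 CPM per kilobase in the mutant. By gene, *stmn1b* and *stmn4l* were higher in every pair and *stmn3* was lower in every pair. *stmn2a*, *stmn2b* and *stmn4* were mixed in sign.

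The stathmins were next compared with a marker gene within each library. In whole heads, it cannot be told whether the RNA of a stathmin and of its marker came from the same cells. The log2 ratio of *stmn1a* to *pcna*, which encodes the sliding clamp of DNA replication and marks cycling cells, was -1.57, -1.59 and -1.54 in the mutant pools, against -1.15, -1.12 and -1.0 in the wild-type pools. This ratio was thus lower in every mutant pool, by 0.48 on average, with an SD of 0.0278 in the mutant and 0.0807 in the wild type (two-sided exact permutation test, p = 0.1, again the minimum; adjusted p = 0.2 over 4 comparisons). *pcna* itself was at 398, 323 and 394 CPM in the mutant pools, against 205, 141 and 111 CPM in the wild-type pools (log2 fold change 1.29, adjusted p = 0.0188 from edgeR). No ratio was computed for other markers of cycling cells. Their log2 fold changes ran from 0.72 to 1.56, below and above the 0.82 of *stmn1a*. *pcna* followed *stmn1a* in the rank of the pools within the wild type, with pool 1 highest and pool 3 lowest, and pool 2 was the lowest mutant pool for both. The log2 ratio of the neuronal sum to *elavl3* was 2.65 ± 0.254 in the mutant and 2.63 ± 0.155 in the wild type (SD, n = 3 each), a difference of 0.02 (exact permutation test, p = 1), with overlapping groups. It was 2.58, 2.44 and 2.93 in the mutant pools, against 2.73, 2.72 and 2.45 in the wild-type pools. The differences within same-numbered pools had opposite signs, at -0.14, -0.28 and 0.48, so the small mean difference does not show that the neuronal sum and *elavl3* moved together.

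**Figure D3:**
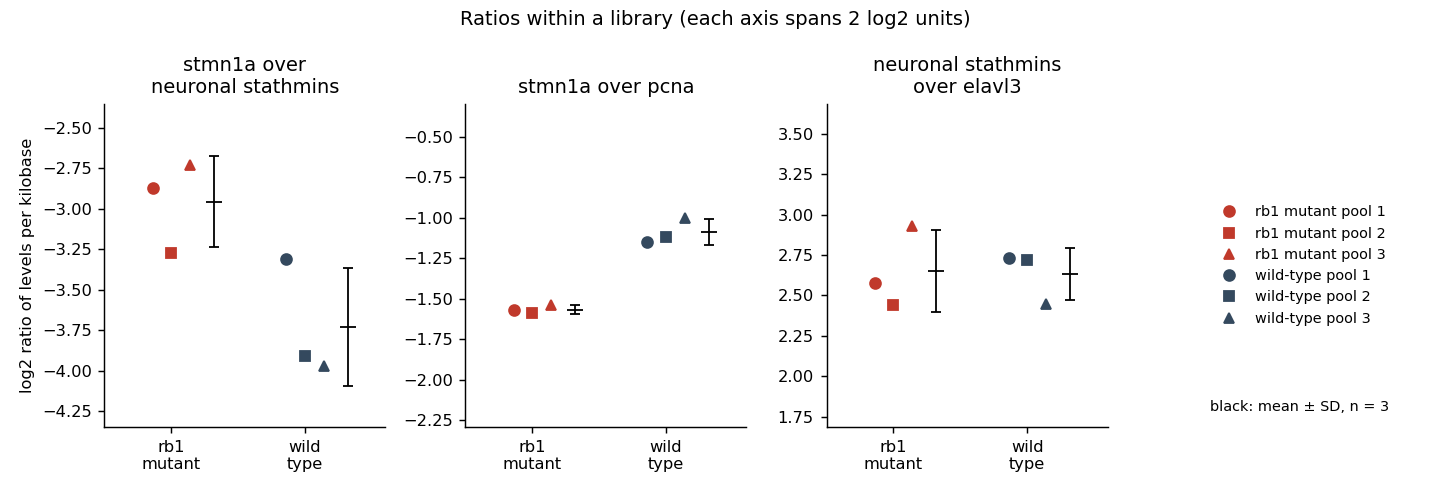
Log2 ratios of levels per kilobase within each library (vertical axes, each spanning 2 log2 units) for *stmn1a* over the neuronal sum, *stmn1a* over *pcna*, and the neuronal sum over *elavl3*, 1 point per pool, with the mean and SD of 3 pools in black. The first ratio is higher in every mutant pool than in every wild-type pool, the *pcna* ratio is lower in every mutant pool (-1.59 to -1.54 against -1.15 to -1.0), and the *elavl3* ratio overlaps.

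Markers of cycling progenitors were the list with the most genes past the threshold. They are genes of cycling cells in general, and none is specific to neural cells. Of 15 such genes tested, 11 rose and 0 fell at 0.05, and 7 rose at the stricter threshold, with a median log2 fold change of 1.11 (without adjustment 14 were higher and 0 lower at p under 0.05 in edgeR, and DESeq2 called 14 higher and 0 lower at 0.05). The largest rise was that of *cdk1*, the mitotic cyclin-dependent kinase and a kinase of stathmin 1 in mammals, at 62.8, 57.0 and 70.5 CPM in the mutant pools, against 22.5, 20.8 and 21.2 CPM in the wild-type pools (log2 fold change 1.56, adjusted p = 0.00095 from edgeR). *mki67*, the Ki-67 gene, had a value of 1.01 (adjusted p = 0.00364). The smallest value was that of *hmgb2a*, a chromatin protein of proliferating cells (0.72, adjusted p = 0.0144). With the replicate block 14 of the 15 were higher at 0.05, the additional genes being *mcm2* (0.0279, against 0.0966 without it), *mcm6* (0.0333, against 0.094) and *rrm2* (0.0445, against 0.0566), and 6 passed the stricter threshold. Over all genes tested, 3.82% were higher at 0.05, 0.897% at the stricter threshold and 12.8% at an unadjusted p under 0.05 in edgeR. DESeq2 at 0.05 had 6.25% higher, and the replicate block had 5.10% at 0.05 and 0.747% at the stricter threshold. The value of *stmn1a*, 0.82, lay in the lower part of the cycling progenitor list. Several genes of the list are among the E2F targets that the study displayed from these libraries, so its direction is not independent evidence.

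Markers of neural stem cells and glia did not follow *stmn1a*. Of 17 genes tested, 0 rose and 1 fell at 0.05 (0 higher and 4 lower at an unadjusted p under 0.05 in edgeR, where 10.5% of all genes were lower, and 0 higher and 3 lower with DESeq2 at 0.05, where 5.16% were lower), with a median log2 fold change of -0.13. The gene that fell was *vim*, which encodes an intermediate filament of radial glia and other cells, at 73.4, 77.2 and 91.6 CPM in the mutant pools, against 131, 137 and 137 CPM in the wild-type pools (log2 fold change -0.74, adjusted p = 0.0114 from edgeR). *sox2*, a neural stem cell transcription factor, had the highest value, 0.17 (adjusted p = 0.324). With the replicate block *her4.2*, a Notch target, also passed (-0.67, adjusted p = 0.0455, against 0.0765 without it).

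Markers of young neurons and of mature neurons lay on opposite sides of 0 by their medians, and few passed the test. Of 17 genes of young neurons and axon growth, 0 passed at 0.05 in either direction, with a median log2 fold change of 0.16 (2 were higher and 0 lower at an unadjusted p under 0.05 in edgeR, and DESeq2 called 1 higher). The share without adjustment was thus close to the 12.8% of all genes. The highest was *nhlh2*, a transcription factor of newly formed neurons (0.40, adjusted p = 0.0553 from edgeR), and the lowest was *tagln3a* (-0.19, adjusted p = 0.325). *gap43*, a growth cone protein, had a value of 0.22 (adjusted p = 0.368), *elavl3* of 0.09 (adjusted p = 0.820) and *elavl4* of 0.20 (adjusted p = 0.50). Of 22 genes of mature neurons and synapses, 0 rose and 1 fell at 0.05, with a median of -0.11 (0 higher and 5 lower at an unadjusted p under 0.05 in edgeR, where 10.5% of all genes were lower, and 0 higher and 3 lower with DESeq2). The gene that fell was *nefmb*, a medium neurofilament (-0.44, adjusted p = 0.0499), which did not pass with the replicate block (adjusted p = 0.0552). The synaptic gene *snap25a* was lower in every mutant pool, as were 13.2% of all genes, without passing (-0.19, adjusted p = 0.287). Its gap was very narrow, with 539 CPM in mutant pool 2 against 539.8 CPM in wild-type pool 1. *slc32a1*, the vesicular transporter of inhibitory transmitters, had the highest value of the mature neuron list (0.13, adjusted p = 0.701). *stmn3*, at -0.51, lay below the lowest gene of both neuron lists.

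**Figure D4:**
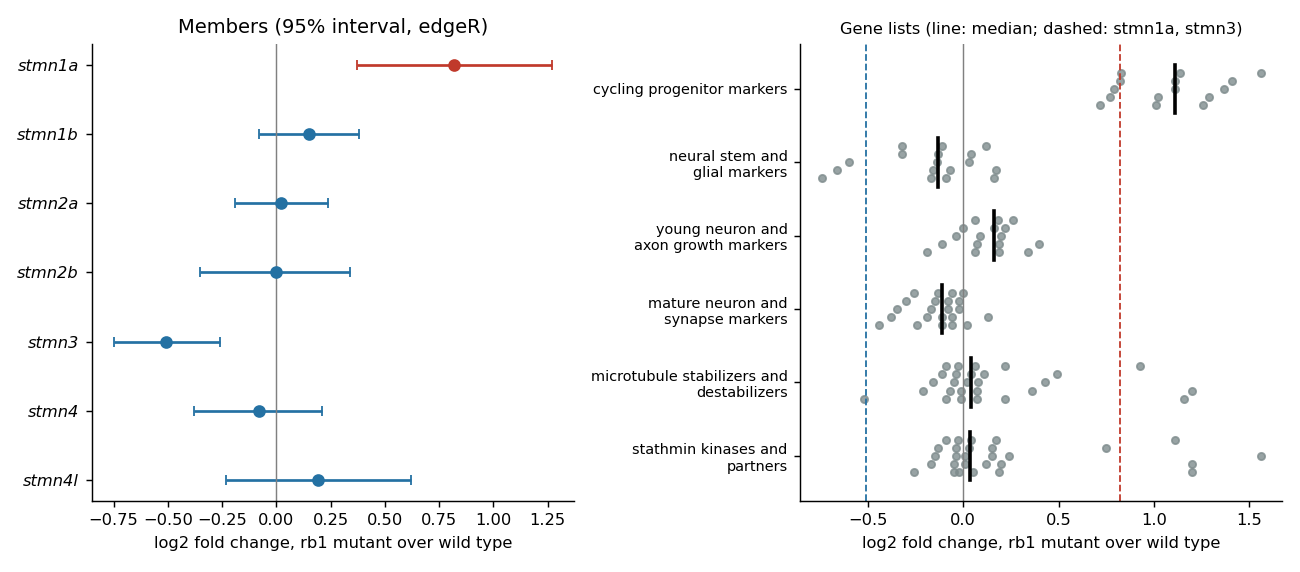
Log2 fold changes of the rb1 mutant over the wild type (horizontal axes) for the 7 stathmins with 95% intervals from edgeR, and for the genes of 6 lists, 1 grey point per gene, with the median of each list as a black line and the values of *stmn1a* (0.82, red) and *stmn3* (-0.51, blue) as dashed lines. The intervals of *stmn1a* and *stmn3* do not reach 0, those of the other 5 stathmins do, and the cycling progenitor list has a median of 1.11 with its lowest gene at 0.72.

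The kinases and binding partners of stathmins were examined as a list of 28 genes, of which 5 rose and 0 fell at 0.05, with a median log2 fold change of 0.03 (5 higher and 1 lower at an unadjusted p under 0.05 in edgeR, where all genes had 12.8% and 10.5%, and 5 higher and 0 lower with DESeq2). The 5 genes were *cdk1*, *cdk2* (1.20, adjusted p = 0.0272 from edgeR), *aurkb* (1.11, adjusted p = 0.00212), *plk1* (1.20, adjusted p = 0.00106) and *siva1* (0.75, adjusted p = 0.0174). *cdk1*, *cdk2*, *aurkb* and *plk1* are cell cycle kinases, of which *cdk1* and *aurkb* also stand in the cycling progenitor list, and the human counterpart of *siva1* binds stathmin 1. Among the kinases with roles outside the cell cycle, *camk2a*, a calcium/calmodulin-dependent kinase of neurons, had the lowest value of the list (-0.26, adjusted p = 0.120). *uhmk1*, whose mammalian counterpart (KIS) was found as a kinase that interacts with stathmin, had a value of 0.03 (adjusted p = 0.923).

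Among 27 genes that stabilize or destabilize microtubules, 3 rose and 0 fell at 0.05, with a median log2 fold change of 0.04 (6 higher and 1 lower at an unadjusted p under 0.05 in edgeR, where all genes had 12.8% and 10.5%, and 5 higher and 1 lower with DESeq2, where all genes had 6.25% and 5.16%). The genes that rose belong to the mitotic spindle. They were *tpx2*, a spindle assembly factor (1.20, adjusted p = 0.00108 from edgeR), *kif2c*, a depolymerizing kinesin (1.16, adjusted p = 0.00131), and *tacc3* (0.93, adjusted p = 0.00161). The lowest was *dclk1a*, a microtubule-binding kinase of the doublecortin family, at 60.3, 66.8 and 52.2 CPM in the mutant pools, against 80.9, 99.7 and 77.3 CPM in the wild-type pools (-0.52, adjusted p = 0.0651 from edgeR, or 0.0232 once the pool number was a block). The neuronal microtubule-associated genes *map1b* (0.02, adjusted p = 0.943), *map2* (-0.01, adjusted p = 0.982) and *mapta* (0.07, adjusted p = 0.811) did not pass.

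Markers of other head tissues were measured beside the stathmins. Over all genes tested, 3.82% were higher and 2.17% lower at 0.05 in edgeR. At an unadjusted p under 0.05 these shares were 12.8% and 10.5%. At an adjusted p of 0.05 they were 6.25% and 5.16% with DESeq2, and 5.10% and 4.03% with the replicate block. The summed level per kilobase of 10 epidermis genes ran from 5785 to 7564 CPM in the mutant pools, against 8411 to 9804 in the wild-type pools, and 0 rose and 3 fell at 0.05 (0 higher and 7 lower at an unadjusted p under 0.05 in edgeR, and 0 higher and 7 lower with DESeq2). The sum of 8 erythroid genes ran from 264 to 531 in the mutant pools, against 217 to 275 in the wild-type pools, so the ranges overlapped. Of the 7 erythroid genes tested, 4 rose and 0 fell (6 higher and 0 lower unadjusted, and 6 higher and 0 lower with DESeq2). The 4 were *slc4a1a*, *alas2*, *gata1a* and *hbae1*. Levels of *gata1a* and *hbae1* were low, with means of 1.74 and 0.992 CPM in the mutant, against 0.921 and 0.257 CPM in the wild type. The sums also overlapped between genotypes for skeletal muscle (11 genes, 5439 to 7313 against 6613 to 8752), lens (9 genes, 7059.6 to 8184 against 7029 to 7838) and microglia and macrophages (12 genes, 225 to 340.3 against 249.7 to 310.3). Of these, 0 muscle genes passed at 0.05 or at an unadjusted p under 0.05 in edgeR, and 0 passed with DESeq2. For the lens 0 passed at 0.05, while 1 was higher and 2 lower unadjusted and DESeq2 called 1 higher and 1 lower. Among the microglia and macrophage genes 1 rose and 1 fell at 0.05 (3 higher and 1 lower unadjusted), against 2 higher and 0 lower both with DESeq2 and with the replicate block. In the blocked fit the macrophage gene *mpeg1.1* was added (0.67, adjusted p = 0.0224, against 0.0641) and the complement gene *c1qb*, at under 1 CPM, was lost (adjusted p = 0.0526, against 0.0374). The block also added *hbbe1.1*, a hemoglobin gene (1.14, adjusted p = 0.0173, against 0.0789), and *icn2* of the epidermis list (-0.61, adjusted p = 0.0432, against 0.103), while *krt17*, a keratin gene, was lost (-0.50, adjusted p = 0.0531, against 0.0451). The lowest and highest log2 fold changes among genes of at least 1 CPM were those of *cyt1l* (-0.63, adjusted p = 0.0212 from edgeR) and *cldne* (-0.06, 0.868) in epidermis, and of *hbbe2* (-0.19, 0.702) and *slc4a1a* (1.61, 0.00269) in erythroid cells. They were those of *pvalb1* (-0.31, adjusted p = 0.404) and *acta1a* (0.21, 0.344) in muscle, *cryaa* (-0.53, 0.0776) and *lim2.1* (0.38, 0.0883) in lens, and *apoeb* (-0.21, 0.567) and *ccl34b.1* (0.96, 0.00367) in microglia and macrophages. The part of these tissues in the values of *stmn1a* and *stmn3* was not tested.

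The genes whose expression ran most closely with that of *stmn1a* over the 6 libraries were *calub*, *ogfod1*, *hnrnpc*, *rcn1* and *mrpl43*, with a Pearson r of log2 CPM between 0.9969 and 0.9981. The 6 points hold both genotypes, and 550 of the 15385 genes compared had an r above 0.95, so the value describes a shared profile only. *calub*, a calumenin gene, was at 23.4, 19.7 and 23.8 CPM in the mutant pools, against 16.4, 11.3 and 10.1 CPM in the wild-type pools, a log2 fold change of 0.82 like that of *stmn1a* (adjusted p = 0.0466 from edgeR). The other 4 had log2 fold changes between 0.23 and 0.43. For the neuronal sum the closest genes were *znf1015*, *stap2a*, *nfyal*, *ppp2ca* and *arv1* (r between 0.9836 and 0.9875). Among the stathmins themselves, *stmn1b* and *stmn4l* had the highest Pearson r over the 6 libraries, 0.92, and *stmn1a* and *stmn3* the lowest, -0.90.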

How the data were processed

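Reads from 3 *rb1Δ7/Δ7* and 3 +/+ pools of 5 heads were aligned by the authors to GRCz10 with GSNAP, keeping uniquely aligned reads, and counted per gene with HTSeq. The deposited counts are raw and separate for 2 lanes of each library. The strand setting is not given in the sources used here, so overlapping and antisense genes are uncertain. The authors computed the deposited FPKM values from these counts and their exonic lengths, and all 12 columns followed that equation. Here only the lengths were used from that table. The authors' table of their own DESeq2 comparison (fold changes and p-values) was not used.

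Lanes were summed, because they differed by no more than sampling noise (chi-square over degrees of freedom 0.9914 to 1.0145). The test of each gene was edgeR's quasi-likelihood test (edgeR 4.0.16, R 4.3.3, TMM, filterByExpr, genotype as the only term, Benjamini-Hochberg adjustment over 22753 genes). The study used DESeq2, which was run as an alternative (1.42.0), with other scalings, no filter, single lanes, the pool number as a replicate block and each pool left out. A standard error is the size of the log2 fold change over the square root of F. Its 95% interval uses the total degrees of freedom of the fit, which add edgeR's prior degrees of freedom to the residual ones. Ratios were compared with exact permutation tests in scipy 1.17.1. Level ratios used TMM-scaled CPM per kilobase. Correlations with other genes used log2(CPM + 0.5), except that the neuronal sum entered as log2 of its level per kilobase. Those among the stathmins used log2 CPM with nothing added. The gene tests (edgeR with and without the replicate block, and DESeq2) were tried on simulated counts that held no pairing of pools.

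Labels give the pool number in both genotypes. Deviations from the genotype means correlated across genes between same-numbered pools (Pearson r 0.41, 0.431 and 0.281, against at most 0.031 for other pairs). Deviations cancel within a genotype, so positive values for same-numbered pairs lower those of other pairs, which are no independent baseline. The numbers were treated as pairing the pools in the replicate block and the within-pair differences, although the animals differ. The main test had no such pairing. The labels do not tie pools to clutches, so p-values measure the spread between pools of heads.

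The members and the gene lists were chosen with earlier results of these data known. The genes named are the members, *rb1*, 6 reference markers, the highest and lowest gene of each list with a mean of at least 1 CPM, and the 5 genes of at least 5 CPM most like *stmn1a* or the neuronal sum. Members of the lists that passed a test or whose call the block changed, *map1b*, *map2*, *mapta*, *uhmk1* and *mcm3* were named after their values had been seen. Where a symbol repeated, the identifier with more counts was used.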

Additional observations from a re-analysis of the deposited data

How the results depend on the processing

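The log2 fold change of *stmn1a* kept its sign under all 13 alternatives, and its adjusted p ran from 0.00154 (DESeq2) to 0.204 (without wild-type pool 2). It passed 0.05 with DESeq2 (0.81), upper-quartile scaling (0.85), no filter on low counts (0.82), the replicate block (0.85) and lane a alone (0.87), and not with RLE scaling or lane b alone. Leaving out a pool gave 0.67 to 1.06, with 2 of the 6 fits at or under 0.05. The number of members at 0.05 was 1 in the fit reported, 2 with upper-quartile scaling, DESeq2, no filter, the replicate block and lane a alone, and 0 to 2 with a pool left out. At the stricter threshold it was 0 throughout except 1 with DESeq2. The log2 difference of the neuronal sum was 0.08, and -0.04 as a mean of log2 values, which weights *stmn3* like the abundant members. The sign of *stmn2b* changed in 5 alternatives and that of *stmn2a* and of *stmn4* in 1 each, none of them past the threshold. The block changed no other call of a member. Over all genes, 1363 passed at 0.05, against 2634 with DESeq2 and 2078 with the replicate block, and 214 (without wild-type pool 2) to 1610 with a pool left out. At the stricter threshold 269 passed, against 1107 with DESeq2 and 1 (without wild-type pool 3) to 219 with a pool left out. Counts of the gene lists at 0.05 moved by more than 1.5 times with DESeq2 for microtubule regulators (6, against 3), neural stem and glial markers (3, against 1), young neurons (1, against 0), mature neurons (3, against 1), lens (2, against 0) and epidermis (7, against 3), and with the block for neural stem and glial markers (2) and mature neurons (0). Smaller moves were those of cycling progenitor markers (14 with DESeq2 and with the block, against 11), erythroid markers (6 with DESeq2 and 5 with the block, against 4) and microtubule regulators (4 with the block). With 3 pools of each genotype, differences of the other 5 members within the intervals given could not be told from 0, and single libraries were not tested as outliers.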
